A study of Mus musculus with 4 samples.

Results

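The genes described are the enzymes that place and remove DNA methylation: the DNA methyltransferases Dnmt1, Dnmt3a and Dnmt3b, their cofactor Dnmt3l, the recruiter Uhrf1, the dioxygenases Tet1, Tet2 and Tet3, and the glycosylase Tdg. They were chosen by symbol, which gave 9 genes of the 36808 in the deposited tables, and 7 of the 9 had an estimated level in both genotype tables. Whole mouse embryos were profiled by directional mRNA-seq in 4 groups with 1 library each: wild type and Tc/Tc at E7.5 to 8.0, called E8, and wild type and Tc/Tc at E10.0 to 10.5, called E10. The study used Tc as a model of Brachyury (T) function, and all 4 groups carry (C3H/HeH x 101/H)F1 as their strain of origin. The sources used here do not say how many embryos were pooled for a library.

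Methylation of cytosine in CG dinucleotides is copied after DNA replication by Dnmt1, which Uhrf1 brings to the half-methylated daughter strands. Dnmt3a and Dnmt3b methylate new sites, and Dnmt3l, which has no catalytic activity of its own, stimulates them. Tet enzymes oxidise methylcytosine, and Tdg cuts out the more oxidised forms so that base excision repair can restore cytosine. In the mouse, methylation is laid down widely around implantation, and Dnmt3b and Tet1 are known as genes of the epiblast.

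Levels are FPKM as the authors deposited them, which divide a gene's fragments by its transcript length and by the library's total fragments. E8 values come from the E8 genotype table and E10 values from the E10 genotype table. Wild type E8, Tc/Tc E8 and wild type E10 were also estimated in a second table, and those values are given as second estimates of the same library. Over all genes at 1 FPKM or more in both tables, the log2 difference between the estimates had an SD of 0.061 in wild type E8, and of 0.174 both in Tc/Tc E8 and in wild type E10. This is the only error available. It covers re-estimation and says nothing of the spread between embryos, and with 1 library per group no difference was tested. Absolute read depth is unknown. Among genes below 0.5 FPKM in both libraries of a table, the ratios piled up in 1 narrow bin. If that bin marks genes read the same number of times, Tc/Tc E8 had 0.986 times the depth of wild type E8, Tc/Tc E10 had 1.09 times that of wild type E10, and wild type E10 had 0.959 times that of wild type E8. T itself stood at 36.7 FPKM in wild type E8, 48.3 in Tc/Tc E8, 7.18 in wild type E10 and 30.4 in Tc/Tc E10, which does not check the genotype because the allele is not read.

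Ratios are on the log2(FPKM + 1) scale, where changes of low genes come out too small, and a ratio of 1 or more in either direction, a fold of 2, is the size rule used as a description. None of the 7 estimated members passed it between the genotypes at E8, where 7.22% of 13547 genes did, or at E10, where 8.03% of 14265 did. None passed it from E8 to E10 in wild type, where 11.1% of 13782 genes did, or in Tc/Tc, where 10.7% of 13717 did. With second estimates 1 member passed, Tdg in the wild-type stage comparison, where 12.5% of 14239 genes passed. None passed with them in the other comparisons, where 5.86% of genes did at E8, 6.83% at E10 and 11.5% in the Tc/Tc stage comparison. The median log2 ratio of the 7 members was 0.07 at E8 and 0.04 at E10 for Tc/Tc over wild type, beside 0.06 and 0.16 over all genes. For E10 over E8 it was -0.10 in wild type and 0.22 in Tc/Tc, beside -0.07 and 0.04 over all genes. The stage ratios with first estimates join values estimated in separate tables, and each stage comparison shares a library with each genotype comparison. With second estimates only the wild-type stage ratio comes from a single table. The genotype ratios and the Tc/Tc stage ratio then join separate tables. Scaling to equal totals moved the median of all genes by -0.20 in the E8 genotype comparison and by 0.24 in the Tc/Tc stage comparison, and centring moved it by -0.16 in the E10 genotype comparison.

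**Figure D1:**
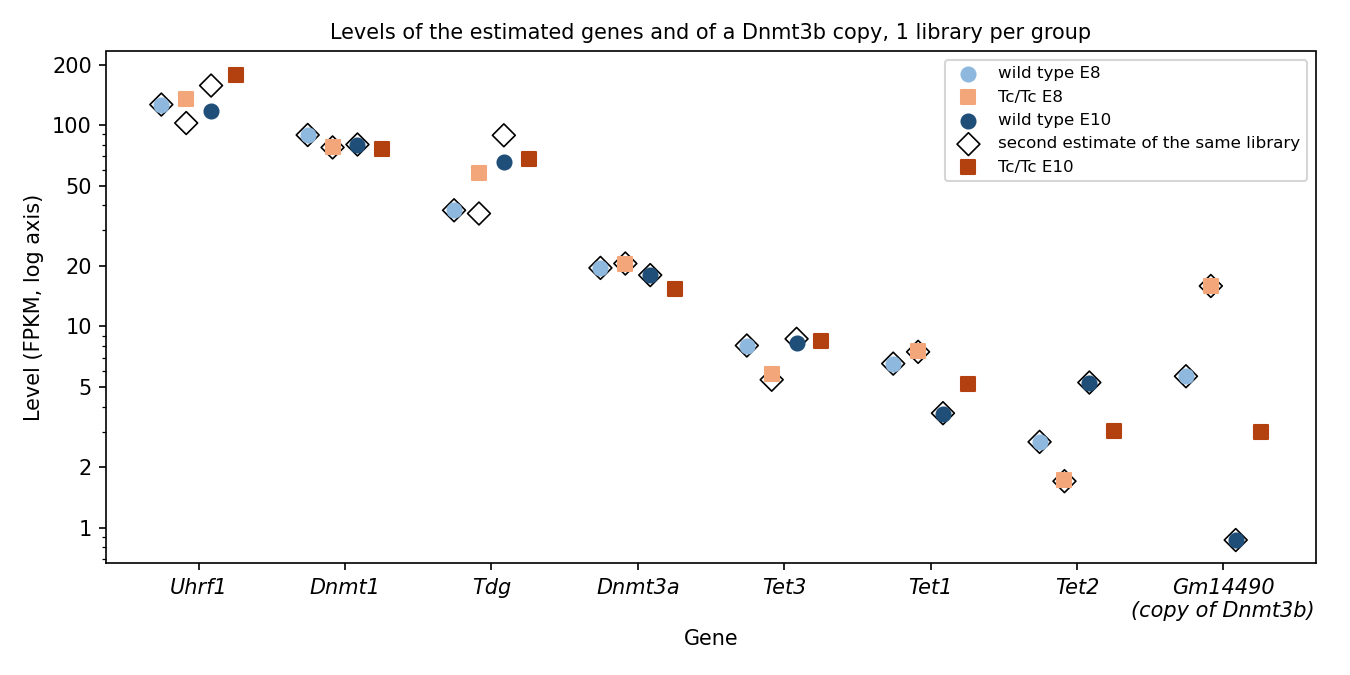
Level in FPKM (log axis) of the 7 estimated members and of Gm14490, a copy of Dnmt3b, in each of the 4 libraries (filled points), with the second estimate of the same library where there is one (open diamonds). Dnmt1, Dnmt3a, Tet1, Tet2 and Gm14490 have diamonds on or close to their points, while Uhrf1 and Tdg have diamonds well away from them in Tc/Tc E8 and wild type E10.

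The maintenance genes Uhrf1 and Dnmt1 had the highest levels of the 7 members in each library of the genotype tables. Dnmt1 (ENSMUSG00000004099), the maintenance methyltransferase, stood at 89.3 FPKM in wild type E8, 77.5 in Tc/Tc E8, 80.1 in wild type E10 and 76.2 in Tc/Tc E10. The 4 libraries lay within 0.23 on the log2 scale of each other, the narrowest span of the 7 members, and the second estimates were equal to the first. Its log2 ratio of Tc/Tc over wild type was -0.20 at E8 and -0.07 at E10. The ratio of E10 over E8 was -0.16 in wild type and -0.02 in Tc/Tc, and equal totals turned the latter to 0.25. In wild type E8, 7.99% of the genes at 1 FPKM or more stood above Dnmt1, and in Tc/Tc E10 9.36% did.

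Uhrf1 (ENSMUSG00000001228), the reader of half-methylated DNA that recruits Dnmt1, stood at 126 FPKM in wild type E8, 135 in Tc/Tc E8, 118 in wild type E10 and 178 in Tc/Tc E10. Tc/Tc E10 was the highest of the 4 libraries, and its log2 ratio over wild type E10 was 0.59. The second estimates were 127 FPKM in wild type E8, 102 in Tc/Tc E8 and 157 in wild type E10. With them the E10 ratio was 0.18 and the E8 ratio went from 0.09 to -0.30, so the direction at E8 depended on the table. It also turned at E8 with equal totals, to -0.14. In the wild-type stage comparison the ratio was -0.10 with the first estimates and 0.31 with the second, and in Tc/Tc it was 0.40 and 0.79. Relative to Dnmt1 in the same library, Uhrf1 was higher by a log2 ratio of 0.50 in wild type E8, 0.80 in Tc/Tc E8, 0.56 in wild type E10 and 1.22 in Tc/Tc E10. With second estimates the Tc/Tc E8 value was 0.40 and the wild type E10 value 0.97, which closed much of the distance between genotypes at E10.

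Of the members that set new methylation or stimulate it, only Dnmt3a had levels in both genotype tables. Dnmt3a (ENSMUSG00000020661) stood at 19.5 FPKM in wild type E8, 20.5 in Tc/Tc E8, 18.0 in wild type E10 and 15.4 in Tc/Tc E10. The log2 ratio of Tc/Tc over wild type was 0.07 at E8 and -0.21 at E10, and the second estimates, of 19.5, 20.5 and 18.0 FPKM, were the same to this precision. With equal totals the E8 ratio was -0.15. Tc/Tc E10 was the lowest library, at a log2 ratio of -0.39 to Tc/Tc E8. Dnmt1 exceeded Dnmt3a in each library, by a log2 ratio of FPKM from 1.92 in Tc/Tc E8 to 2.31 in Tc/Tc E10.

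Dnmt3b (ENSMUSG00000027478), the de novo enzyme of the epiblast, had no estimate, with 0 in all the columns used. This is not evidence of absence, since rows at 0 in both libraries of a table can be failed estimates. A row for a copy of it was estimated: Gm14490 (ENSMUSG00000082079), which RefSeq calls Dnmt3b-ps1 with the synonym Dnmt3c. It is not one of the 9 members and was named after its values were seen. Gm14490 stood at 5.66 FPKM in wild type E8, 15.9 in Tc/Tc E8, 0.869 in wild type E10 and 3.0 in Tc/Tc E10. Tc/Tc was above wild type at each stage and E8 above E10 in each genotype. The log2 ratio of Tc/Tc over wild type was 1.34 at E8 and 1.10 at E10, and E10 over E8 gave -1.83 for wild type and -2.08 for Tc/Tc. At E8 2.03% of genes had a higher ratio, and in the Tc/Tc stage comparison 0.656% had a lower one. The second estimates equalled the first. With a pseudocount of 5 FPKM the genotype ratios were 0.97 and 0.45 and the wild-type stage ratio -0.86, all under the size rule, while the Tc/Tc stage ratio was -1.38, and centring on the median of all genes gave 0.94 at E10. Whether these fragments came from Gm14490 or from Dnmt3b cannot be told apart here, since the files do not say how fragments of near-identical copies were shared out. Pou5f1, the pluripotency factor of the epiblast and germ cells, stood at 18.9, 125, 0.184 and 1.79 FPKM in the same order of libraries, and its part in the values of Gm14490 was not tested.

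Dnmt3l (ENSMUSG00000000730) had no estimate in the genotype tables. In the wild-type stage table it was listed at 0.310 FPKM in wild type E8 and at 0 in wild type E10, too low for a ratio under the minimum of 1 FPKM used here.

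The 3 Tet genes differed between libraries in their make-up more than in their sum. Their summed level lay between 15.0 FPKM in Tc/Tc E8 and 17.2 in wild type E8, with 17.1 in wild type E10 and 16.7 in Tc/Tc E10. Tet1 (ENSMUSG00000047146), the Tet enzyme of the epiblast and of embryonic stem cells, stood at 6.53 FPKM in wild type E8, 7.54 in Tc/Tc E8, 3.67 in wild type E10 and 5.20 in Tc/Tc E10. Tet2 (ENSMUSG00000040943), known for its role in blood stem cells, went the other way, at 2.67 FPKM in wild type E8, 1.73 in Tc/Tc E8, 5.22 in wild type E10 and 3.03 in Tc/Tc E10. At each stage Tet1 was higher and Tet2 lower in the Tc/Tc library, except that equal totals put the Tet1 ratio at E8 at -0.02, and in each genotype Tet1 was lower and Tet2 higher at E10. The log2 ratios of Tc/Tc over wild type were 0.18 and 0.41 for Tet1 and -0.43 and -0.63 for Tet2, at E8 and E10. From E8 to E10 they were -0.69 in wild type and -0.46 in Tc/Tc for Tet1, and 0.76 and 0.56 for Tet2. None of these passed the size rule. Between genotypes, ratios this far from 0 were common: 60.2% and 35.7% of genes were at least as far as Tet1, and 28.8% and 19.3% at least as far as Tet2.

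Setting Tet1 against Tet2 within a library removes the scaling of that library. This measure was chosen after the values were seen. Tet1 was 2.45 times Tet2 in wild type E8, 4.36 times in Tc/Tc E8, 0.702 times in wild type E10 and 1.72 times in Tc/Tc E10. The log2 ratios were 1.29, 2.13, -0.51 and 0.78. Tet2 exceeded Tet1 in wild type E10 and in no other library, and Tc/Tc E10 lay between wild type E8 and wild type E10. Tc/Tc exceeded wild type by 0.84 at E8 and by 1.29 at E10, and E10 differed from E8 by -1.80 in wild type and -1.35 in Tc/Tc. The second estimates gave 0.84, 1.29, -1.80 and -1.35, so these differences were large beside re-estimation, but the spread between embryos is not known.

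Tet3 (ENSMUSG00000034832), the enzyme that acts on the paternal genome of the zygote, held the largest share of Tet transcripts in 3 of the 4 libraries. It stood at 8.01 FPKM in wild type E8, 5.78 in Tc/Tc E8, 8.25 in wild type E10 and 8.50 in Tc/Tc E10. Tc/Tc E8 was the lowest library, with a log2 ratio to wild type of -0.41, and the other 3 lay close together. The E10 ratio was 0.04, and -0.12 after centring. The second estimate of Tc/Tc E8 was 5.43 FPKM. In Tc/Tc E8 Tet1 held 50.1% of the summed Tet FPKM and Tet3 38.4%, whereas in wild type E8 Tet1 held 37.9% and Tet3 46.5%. At E10 Tet1 held 21.4% in wild type and 31.1% in Tc/Tc, and Tet2 held 30.5% and 18.1%.

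**Figure D2:**
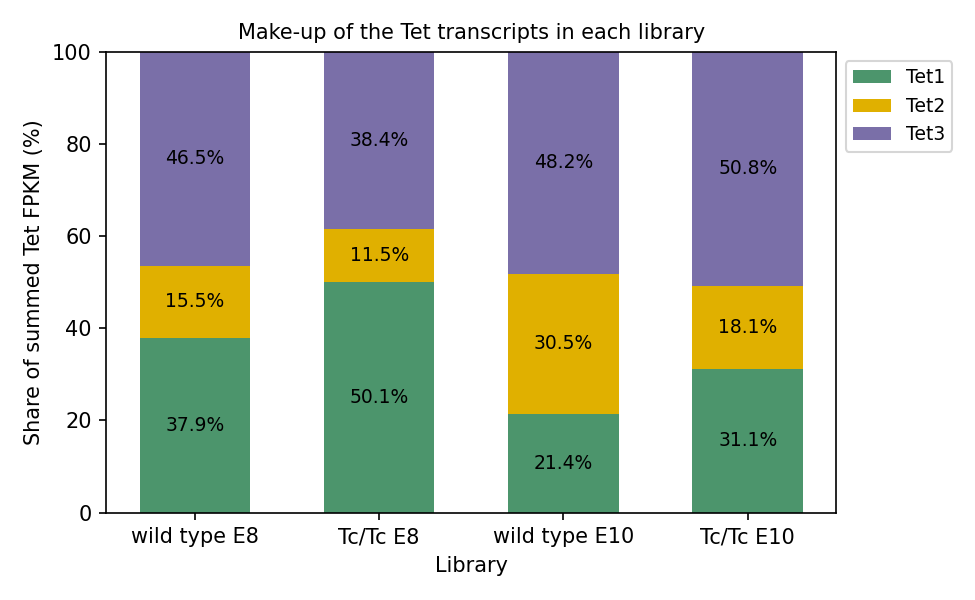
Share of the summed Tet FPKM (%, bars from 0 to 100) held by Tet1, Tet2 and Tet3 in each of the 4 libraries, 1 per group. Tet1 held its largest share, 50.1%, in Tc/Tc E8 and its smallest, 21.4%, in wild type E10, where Tet2 held its largest, 30.5%.

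The libraries also differ in the levels of cell type markers. In bulk samples, fewer cells of a type and less RNA per cell cannot be told apart. Markers counted here as higher or lower in Tc/Tc are only those past the size rule. Over all genes, 7.22% passed it at E8 and 8.03% at E10, in either direction. Of the epiblast and germ cell markers, 5 of 9 measured were higher in Tc/Tc at E8 and 4 of 7 at E10, with a summed level of 337 FPKM in wild type E8, 508 in Tc/Tc E8, 129 in wild type E10 and 278 in Tc/Tc E10. Lin28a, an RNA-binding protein of early embryonic cells, made up much of these sums. Without Lin28a the sums were 67.7, 204, 56.1 and 55.7 FPKM, so those of the E10 genotypes then hardly differed. Sox2 held most of this E10 remainder, with 50.5 FPKM for the wild type library against 37.4 for the Tc/Tc library. Its log2 ratio there was -0.42, under the size rule, whereas 6 of the 7 measured markers had ratios above 0. The near-equal E10 sums therefore rest on Sox2. Utf1 and Dppa4 were listed at 0 in both wild-type libraries. Yolk sac markers, 12 of 13 higher at E8 and 14 of 14 at E10, summed to 1069, 3347, 23.9 and 742 FPKM in the same order. Trophoblast markers, 5 of 8 higher at E8 and 1 of 3 at E10, summed to 32.7, 53.1, 10.1 and 31.3 FPKM. The 1 gene at E10 was Cdx2, which is not particular to trophoblast, with a log2 ratio of 2.43 there and of -0.28 at E8. Plac1 and Gata3, the others measured at E10, had ratios of 0.61 and 0.63, under the rule. Without Cdx2 the sums were 12.7, 36.7, 7.84 and 15.0 FPKM. Neuronal markers, 1 of 7 lower at E8 and 9 of 11 at E10, summed to 38.3, 32.5, 106 and 31.8 FPKM, with Neurod1 and Neurod4 listed at 0 in Tc/Tc E10. Red cell markers, 1 of 6 higher and 1 of 6 lower at E8 and 3 of 8 lower at E10, summed to 102, 94.4, 4872 and 1711 FPKM. Hba-x stood at 41.7 FPKM in wild type E8 and 4.58 in Tc/Tc E8. Without it the sums were 60.3, 89.8, 2401 and 780 FPKM, so Tc/Tc was then the higher at E8. Of the decidual markers 1 of 3 was higher at E8 and 1 of 2 at E10, with sums of 9.35, 13.2, 11.3 and 48.2 FPKM, and of 1.14, 3.38, 2.80 and 2.22 without Cryab, a small heat shock protein. Some markers, such as Elf5 and Ascl2 at E8, passed the minimum of 1 FPKM through the Tc/Tc library alone. With a pseudocount of 5 FPKM, 2 of 9 epiblast, 1 of 8 trophoblast and 0 of 3 decidual markers were higher at E8. At E10, 2 of 7 epiblast markers were then higher and 3 of 11 neuronal markers lower. Yolk sac counts were then 12 of 13 at E8 and 12 of 14 at E10. The part of these cell types in the Tet values was not tested.

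Because Tet1 and Tet2 differed in opposite directions between the libraries, their promoter windows are shown, from 250 bases before to 50 after the start of transcription in RefSeq on GRCm38.p6, which is another build than the mm9 of the deposited values. CG dinucleotides, the sites that the described enzymes act on, are in capitals.
Tet1, chr10:62887275-62887574, minus strand: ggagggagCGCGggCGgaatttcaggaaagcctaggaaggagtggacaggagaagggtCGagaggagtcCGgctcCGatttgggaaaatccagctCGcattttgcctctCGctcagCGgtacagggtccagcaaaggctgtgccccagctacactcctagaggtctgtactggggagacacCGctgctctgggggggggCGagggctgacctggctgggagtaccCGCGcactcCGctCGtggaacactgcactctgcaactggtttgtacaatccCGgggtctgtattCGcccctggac
Tet2, chr3:133544341-133544640, minus strand: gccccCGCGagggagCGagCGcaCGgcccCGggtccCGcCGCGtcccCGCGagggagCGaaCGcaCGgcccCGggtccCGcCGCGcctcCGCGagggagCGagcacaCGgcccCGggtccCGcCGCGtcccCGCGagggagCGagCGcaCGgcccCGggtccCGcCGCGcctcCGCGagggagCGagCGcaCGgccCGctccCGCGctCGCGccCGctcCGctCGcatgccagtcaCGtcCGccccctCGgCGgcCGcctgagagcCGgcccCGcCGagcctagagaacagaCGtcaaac
The motif searched was CG, which reads the same on both strands. The Tet1 window held 17 CG dinucleotides, and 31.4% of 32851 promoter windows of this length held as many or more. The Tet2 window held 57, and 0.152% held as many or more. All 9 genes had windows, 16 in all, with between 2 and 57 CG dinucleotides, beside a median of 7 over all promoter windows. Methylation was not measured in this series, so the counts describe the sequences only.

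By its level over the 4 libraries Tet2 was the only member to span 1 or more on the log2(FPKM + 1) scale, at 1.19. The 3 genes whose centred values lay nearest to it, among 14136 genes, were Rassf4 at a distance of 0.050, E130208F15Rik at 0.063 and AC151976.1 at 0.064. AC151976.1, for example, stood at 6.90 FPKM in wild type E8, 5.24 in Tc/Tc E8, 12.8 in wild type E10 and 7.84 in Tc/Tc E10. With 4 libraries this likeness is a description.

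Tdg (ENSMUSG00000034674), the glycosylase that completes Tet-driven demethylation, was the member whose values depended most on the table. It stood at 37.9 FPKM in wild type E8, 58.1 in Tc/Tc E8, 65.9 in wild type E10 and 67.8 in Tc/Tc E10. Wild type E8 was the lowest library, and the other 3 lay above it. Second estimates put Tdg at 37.8 FPKM in wild type E8, 36.4 in Tc/Tc E8 and 89.0 in wild type E10. For Tc/Tc E8, 0.839% of 12638 genes were re-estimated at least as far apart as Tdg. The log2 ratio of Tc/Tc over wild type at E8 was 0.60 with the first estimates and -0.05 with the second, and at E10 it was 0.04 and -0.39, and -0.12 after centring. From E8 to E10 it was 0.78 and 1.22 in wild type, and 0.22 and 0.88 in Tc/Tc. The stage ratio kept its sign in both genotypes with either set of estimates, and the genotype ratio did not.

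The files also list copies of Tdg that RefSeq names Tdg-ps2, under the symbol Gm9855, and Tdg-ps, under the symbol Gm5806. Gm9855 stood at 54.3 FPKM in wild type E8, 51.5 in Tc/Tc E8, 18.8 in wild type E10 and 26.6 in Tc/Tc E10, lower at E10 where Tdg was higher. From E8 to E10 the log2 ratio of Gm9855 was -1.48 for wild type and -0.93 for Tc/Tc. Gm5806 stood between 13.0 and 15.0 FPKM in the 4 libraries. Summed over Tdg and both copies the level was 107 FPKM in wild type E8, 124 in Tc/Tc E8, 97.7 in wild type E10 and 108 in Tc/Tc E10. The stage ratio of the sum was -0.13 in wild type and -0.19 in Tc/Tc, and 0.17 and 0.08 with second estimates. Second estimates of the copies hardly differed from the first, at 51.5 FPKM for Gm9855 and 14.4 for Gm5806 in Tc/Tc E8. The sum moved with Tdg, to 102 FPKM in Tc/Tc E8 and 121 in wild type E10. Tdg alone is therefore reported as uncertain. Its estimates differ, and the sources used here do not say how fragments were shared among these copies. What moved Tdg between the estimates was not tested.

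**Figure D3:**
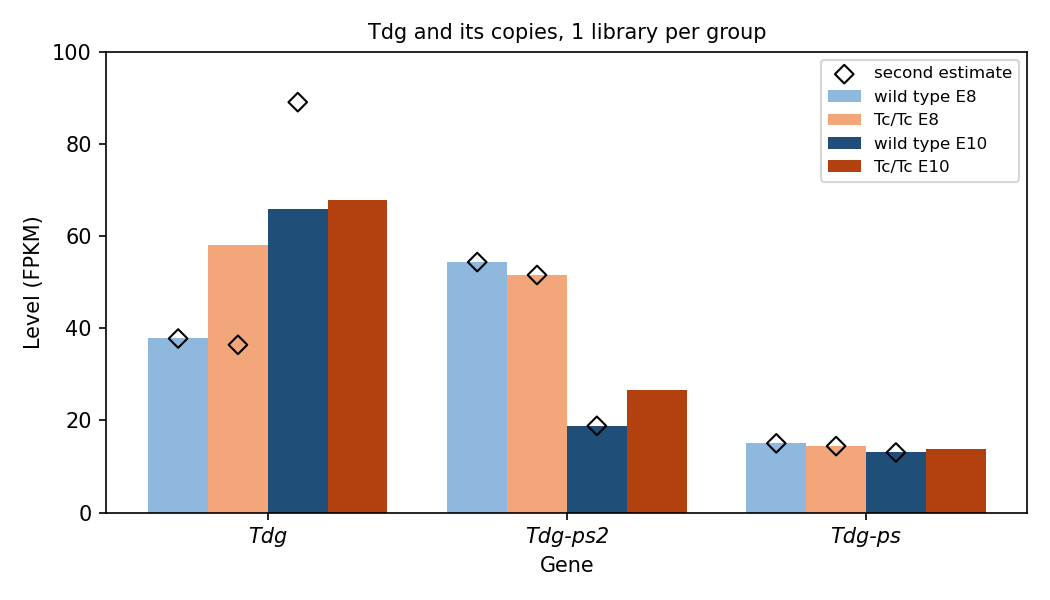
Level in FPKM (bars from 0) of Tdg and its copies Tdg-ps2 (Gm9855) and Tdg-ps (Gm5806) in each of the 4 libraries, with second estimates as open diamonds. Tdg-ps2 is above Tdg in wild type E8 and below it in both E10 libraries, and only Tdg has diamonds away from the bars.

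**Figure D4:**
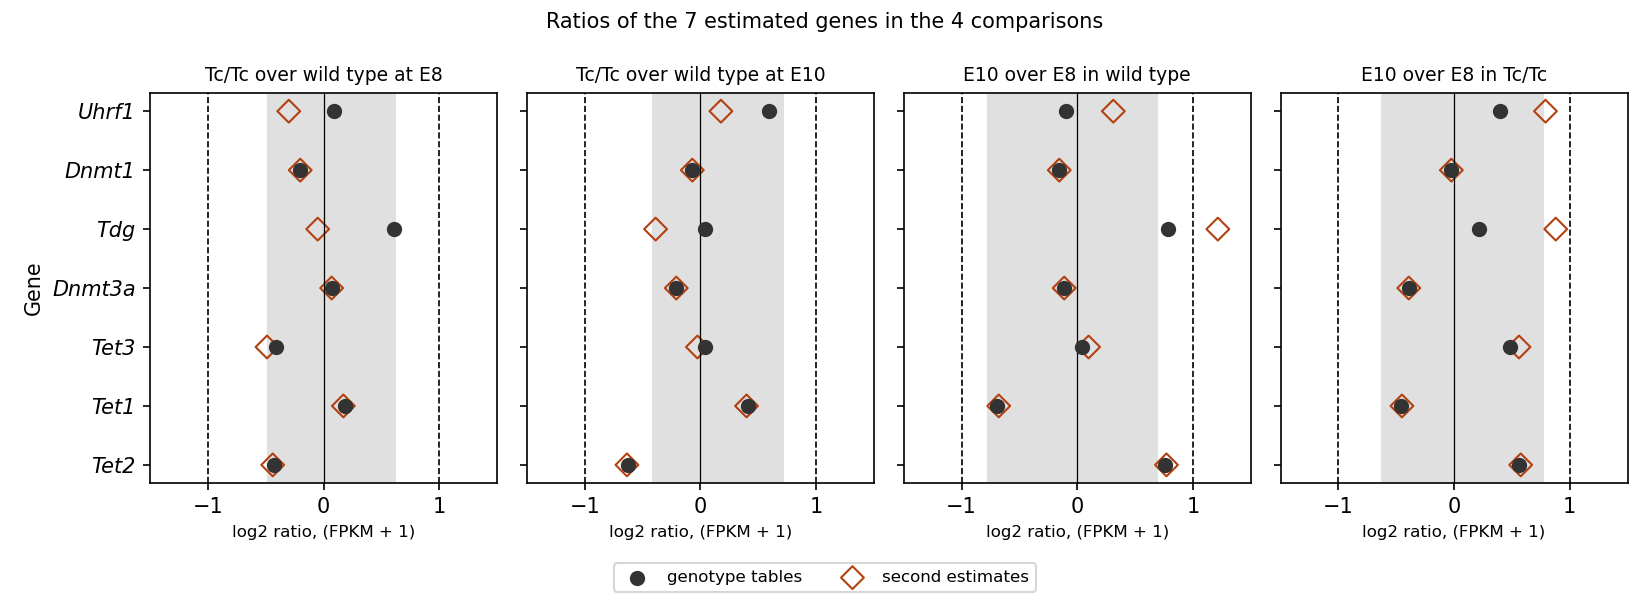
Log2 ratio of (FPKM + 1) for the 7 estimated members in the 4 comparisons, from the genotype tables (filled) and with second estimates (open diamonds). The shaded band holds the middle 80% of all genes, the dashed lines mark the size rule, and only the diamond of Tdg in the wild-type stage comparison, at 1.22, lies beyond a dashed line.

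None of 11 measured partners and regulators of methylation passed the size rule in any of the 4 comparisons, and their median log2 ratio of Tc/Tc over wild type was 0.20 at E8 and 0.47 at E10. With second estimates those medians were -0.12 and 0.11, though some partners, such as Zfp57, hardly differed between the tables. Hells, a chromatin remodeller needed for normal methylation, stood at 98.3 FPKM in wild type E8 and 156 in Tc/Tc E8, where the second estimate was 113. Usp7, a deubiquitinase that binds Uhrf1 and Dnmt1, stood at 131 and 215 FPKM, and its second estimates were 136 and 134. Cdca7, the partner of Hells, stood at 107 FPKM in wild type E10 and 191 in Tc/Tc E10, and the second estimate of wild type was 166. Zfp57, a zinc finger protein that protects methylation at imprinted genes, stood at 18.6 and 12.6 FPKM, a log2 ratio of -0.53 that the second estimates left in place.

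Methyl-CpG binding proteins did not pass the size rule in any comparison, with 8 measured at E8 and 9 at E10. Their median log2 ratio of Tc/Tc over wild type was 0.03 at E8 and -0.05 at E10, beside 0.06 and 0.16 over all genes. With second estimates the medians of these proteins were -0.27 and -0.12. Of base excision repair and deamination genes 1 of 13 was lower at E8 and none of 13 passed at E10. Over all genes 7.22% and 8.03% passed, in either direction. Gadd45a, a stress-induced gene proposed to aid demethylation, stood at 22.6 FPKM in wild type E8 and 9.30 in Tc/Tc E8, a log2 ratio of -1.20, with second estimates of 22.4 and 7.61. With a pseudocount of 5 FPKM the ratio was -0.95, under the size rule. In the Tc/Tc stage comparison 10.7% of all genes passed. Of 12 genes of this list, 1 was higher at E10, Apobec2, by a log2 ratio of 1.52, and 1 lower, Gadd45g, by -1.14. With a pseudocount of 5 FPKM they were at 0.64 and -0.89, under the rule, and equal totals also put Gadd45g at -0.89.

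Of the genes that supply Tet enzymes or bind them, 1 of 11 passed the rule between genotypes, Idh1, and only at E10. Over all genes 8.03% did there. Idh1 was also the 1 of 11 past the rule in the wild-type stage comparison, where 11.1% of all genes were. Idh1, the cytosolic isocitrate dehydrogenase that makes 2-oxoglutarate, the cosubstrate of Tet enzymes, stood at 22.9 FPKM in wild type E8, 23.3 in Tc/Tc E8, 69.3 in wild type E10 and 30.9 in Tc/Tc E10. Wild type E10 stood well above the other 3 libraries. Its log2 ratio was -1.14 for Tc/Tc over wild type at E10 and 1.56 for E10 over E8 in wild type, and -1.38 and 1.80 with second estimates. None of 11 genes of the S-adenosylmethionine cycle, which supplies the methyl group, passed the rule in any comparison. At E10 the ratios of all 11 were above 0 as deposited and those of 10 with second estimates or after centring. Their median there was 0.29 as deposited beside 0.16 over all genes, and 0.25 beside 0.09 with second estimates. Of all genes, 63.4% had a ratio above 0.04 as deposited, so at least that share lay above 0. As deposited, 8 of the 11 were above 0 at E8, 3 in the wild-type stage comparison and 5 in the Tc/Tc one. None of 13 replication genes passed in any comparison either, with medians of 0.01 at E8 and 0.23 at E10 between genotypes.

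Of 20 germline genes known to be silenced by promoter methylation, 13 had an estimate at E8 and 7 at E10, and the rest say nothing of absence. At 1 FPKM or more were 1 gene in wild type E8, 3 in Tc/Tc E8, 2 in wild type E10 and 2 in Tc/Tc E10. The highest value was that of Sycp3, a synaptonemal complex gene, at 3.0 FPKM in wild type E8 and 2.94 in Tc/Tc E8. Ddx4, a germ cell helicase, stood at 0.437 and 1.19 FPKM. Stk31 was listed at 0 in wild type E8 and stood at 1.76 FPKM in Tc/Tc E8, and it had no second estimate; its log2 ratio was 1.46, and 0.43 with a pseudocount of 5 FPKM. In the wild-type stage comparison, where 11.1% of all genes passed the rule, 1 of 2 measured genes was higher at E10, Mov10l1. It stood at 0.103 FPKM in wild type E8 and 1.31 in wild type E10, a log2 ratio of 1.07 that was 0.31 with that pseudocount.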

How the data were processed

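RNA from whole embryos was extracted with TRIzol LS and made into strand-specific libraries with ScriptSeq v2, per the labels' protocols. Per the submitters' processing notes the authors used Bowtie2, Cuffdiff and the mm9 build; the sources used here name no versions and no gene annotation. There are 4 pairwise tables, each with the FPKM values of 2 libraries beside a natural-log fold change and a p-value, per the file headers, all as the authors deposited them. Cuffdiff estimates the libraries of a run together, so 1 library can have different values in 2 tables. The Tc/Tc stage comparison has 1 column headed wild type E10, which was left unused. Over 13493 genes its deposited fold changes equalled Tc/Tc E10 over Tc/Tc E8 to within 0.01 (natural log) in 88.2%, and wild type E10 over Tc/Tc E8 in 2.58%. The deposited natural log fold changes were used only for this check and, for that comparison, to see which genes had an estimate; the deposited p-values were not used.

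Genes with 0 for both libraries of a table counted as not estimated. Ratios used a pseudocount of 1 FPKM among genes with 1 FPKM or more in 1 or both libraries. No test was run, since each group has 1 library. The ratio script was tested on simulated data. The text names all members and, from each list, at most the 4 genes farthest from 0 in a comparison. Gm14490, the Tdg copies, Pou5f1, Sox2 and the markers listed at 0 were named after their values were seen. Nearest genes were ranked by Euclidean distance of centred log2(FPKM + 1) values. The members and the 13 other lists were chosen with earlier results of these data known. Alternatives were other pseudocounts and minimums, equal totals, median centring, second estimates and a smaller size rule. Python 3.11.15, pandas 2.3.3 and numpy 2.4.6 were used.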

Additional observations from a re-analysis of the deposited data

Results flagged for a closer look

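Members whose ratio had opposite signs under the same contrast are listed here, and none of these differences was tested, since each group has 1 library. Dnmt3a had a log2 ratio of Tc/Tc over wild type of 0.07 at E8 and -0.21 at E10, a difference of -0.28. Tet3 had -0.41 and 0.04, a difference of 0.45, and with second estimates its E10 ratio was -0.03, so that both signs were then negative. Uhrf1 had a log2 ratio of E10 over E8 of -0.10 for wild type and 0.40 for Tc/Tc, a difference of 0.50, and with second estimates both ratios were positive. Among the other lists, the neurofilament gene Nefm passed the size rule in opposite directions, at 1.24 for wild type and -1.51 for Tc/Tc from E8 to E10, a difference of -2.75. With a pseudocount of 5 FPKM its ratios were 0.97 and -0.98, under the size rule but still of opposite sign.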

How the results depend on the processing

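The absence of members past the size rule held under other pseudocounts, minimums and scalings. With second estimates 1 member passed in the wild-type stage comparison. At 1.5-fold, 1 of 7 passed at E8, 2 at E10, 3 in the wild-type stage comparison and 0 in the Tc/Tc one. Over all genes 2483 of 13547, 3061 of 14265, 3883 of 13782 and 3651 of 13717 did, in that order. Of 144 recomputed member ratios, 112 moved by less than 0.174, the largest SD of re-estimation, and 32 moved further. Of the 32, 13 did so with equal totals and 8 with second estimates. Centring shifts all genes of a comparison by 1 amount, below 0.174 in each, so its 28 ratios could not move further. Equal totals also moves the members of a comparison by similar amounts, so this tally is no measure of stability. Over all genes, taken as E8, E10, wild-type stage and Tc/Tc stage, the count past the rule was 1560, 1758, 2367 and 2322 with a pseudocount of 0.1 and 307, 419, 554 and 490 with one of 5, beside 978, 1145, 1535 and 1466. A minimum of 5 FPKM gave 609, 741 and 967 in the first 3. As deposited, the split of higher against lower was 571 and 407 at E8, and with equal totals 385 and 564. At E10 it was 705 and 440, and centred 487 and 568. In the Tc/Tc stage comparison it was 855 and 611, and 1330 and 409 with equal totals. The Tet1 to Tet2 log2 ratio with a pseudocount of 1 was 1.04 in wild type E8 and 1.65 in Tc/Tc E8. A ratio of Dnmt3a to Dnmt3b was planned and gave no value because Dnmt3b had no estimate. No paired analysis was possible because each group has 1 library. Absolute depth is unknown, so no counting error can be given for low values.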
